A study of Caenorhabditis elegans with 10 samples.

Results

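Neurons are told apart by the transmitter they release, and a small set of genes is needed to make, load and recover each transmitter. The 10 genes described here encode such proteins: unc-17, cha-1 and cho-1 for acetylcholine, unc-25 and unc-47 for GABA, eat-4 for glutamate, cat-2 for dopamine, tph-1 for serotonin, tdc-1 for tyramine and octopamine, and tbh-1 for octopamine. They were taken by name from a given list and matched to WormBase gene identifiers, without use of their values. All 10 were among the 46756 genes of the count table, and all 10 passed edgeR's filter on low counts, which left 16817 genes for testing. Their counts per library ran from 92 for cat-2 in replicate 6 of pbrm-1(control) to 5659 for unc-25.

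RNA was measured in whole early L1 larvae of Caenorhabditis elegans hermaphrodite strains that had hatched without food, in 5 libraries of pbrm-1(TS-KO) and 5 of pbrm-1(control), numbered 1, 4, 5, 6 and 7 in each. Both strains carried pbrm-1(rd31[pbrm-1::GFP(flox)]), a pbrm-1 gene tagged with GFP and flanked by loxP sites, and a loss-of-function unc-119 allele with wild-type Caenorhabditis briggsae unc-119 added as the selectable marker. The pbrm-1(TS-KO) strain also carried the insertion rdIs74, which expresses Cre and a fusion of ZIF-1 with a GFP nanobody from the hnd-1 promoter and thereby removes the last exons of pbrm-1 and degrades the tagged protein, and pbrm-1(control) carried rdIs79, in which that promoter drives only ZIF-1. The hnd-1 promoter is active in embryonic mesoderm, from which body wall muscle and the somatic gonad precursors (SGPs) arise. The knockout was therefore not aimed at neurons. However, the study also saw a small share of larvae that had lost the tagged protein in all tissues. PBRM-1 is a subunit of PBAF, a SWI/SNF chromatin remodeling complex. The comparison asked whether transmitter genes differed between larvae with and without the mesodermal knockout.

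Transmitter genes of C. elegans fall into a few roles. Acetylcholine is made by choline acetyltransferase, packed into vesicles by a vesicular transporter, and its choline is recovered by a plasma membrane transporter. GABA is made from glutamate by glutamic acid decarboxylase and packed by its own vesicular transporter, and glutamate release depends on a vesicular glutamate transporter. Each monoamine is set by an enzyme of its synthesis, while a shared decarboxylase and a shared vesicular transporter serve both dopamine and serotonin. In the hermaphrodite, acetylcholine and glutamate are used by many neurons and dopamine, serotonin, tyramine and octopamine by few.

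Libraries held between 35922561 and 46553938 counts in pbrm-1(TS-KO) and between 36354418 and 45126931 in pbrm-1(control). The targeted gene, pbrm-1, was at 247 ± 11.5 CPM in pbrm-1(TS-KO) and 263 ± 23.9 CPM in pbrm-1(control) (SD, n = 5), with an edgeR adjusted p of 0.433. Counts over the whole gene do not check the deletion, which removes only the last exons. From exon-level counts the paper reported significantly lower expression of most of those exons in pbrm-1(TS-KO). In replicate 5 of pbrm-1(control) the summed level of 10 epidermis genes was 850 CPM, against 196 to 324 CPM in the other control libraries and 195 to 222 CPM in those of pbrm-1(TS-KO). All 20 pan-neuronal genes were tested, and their summed level was 4163 to 4587 CPM in pbrm-1(control) and 4464 to 4680 CPM in pbrm-1(TS-KO), with 1 of them called higher and 1 called lower. Of 15 body wall muscle genes 7 were called lower, of 9 intestine genes 3 were called higher, and 1 of 9 glia genes was called lower. Without replicate 5 of pbrm-1(control) these counts were 6, 2 and 1, and 1 pan-neuronal gene was called in place of 2. Over all genes tested, 3.44% were called higher and 4.28% lower. The muscle list holds genes that the paper had already reported as lower in these data, such as unc-27, lev-11 and unc-52. Its count is therefore not an independent measure of muscle. No gene of these lists was at 0 in all libraries. In whole larvae, fewer cells of a type and less RNA per cell cannot be told apart.

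None of the 10 transmitter genes passed an adjusted p of 0.05 between strains in edgeR's quasi-likelihood test. One gene, cat-2, had an unadjusted p under 0.05, where 24.1% of all tested genes did. Over all 16817 genes, 7.72% passed the adjusted threshold, 3.44% as higher and 4.28% as lower in pbrm-1(TS-KO). DESeq2 also called 0 of the 10, while edgeR with a replicate block, DESeq2 with that block and limma-voom each called 1, which was cat-2. Without replicate 5 of pbrm-1(control), 0 were called, and without replicate 1 of pbrm-1(control), 1 was called. The same fits called, over all genes, 1958 in DESeq2, 1826 (10.9%) in edgeR with the block, 1856 in DESeq2 with the block and 2899 in limma-voom. Those without replicate 5 or replicate 1 of pbrm-1(control) called 907 and 1204. By value 8 of the 10 were higher and 2 were lower, and their median log2 fold change was 0.05, against 0.00045 over all genes tested. In all 10 the ranges of the strains overlapped, and over all genes 9.26% had ranges that did not.

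**Figure D1:**
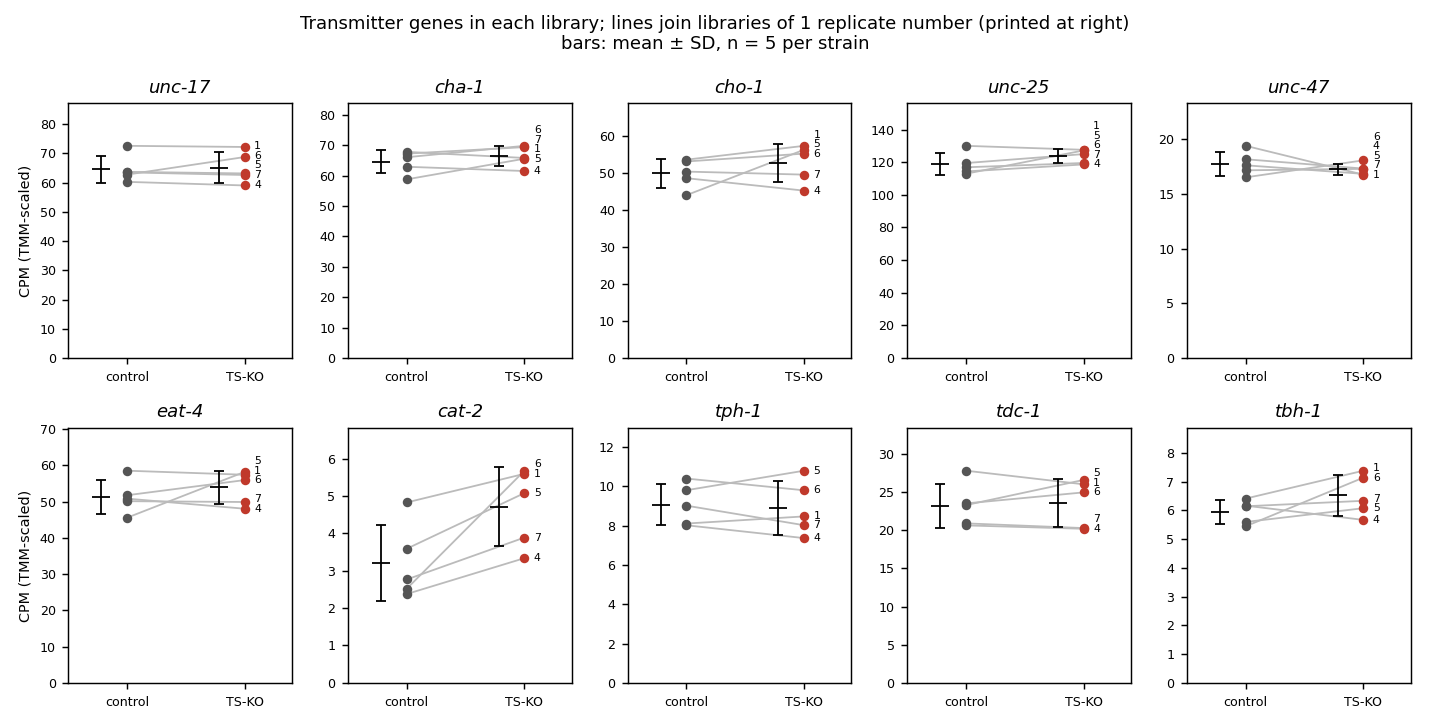
CPM (counts scaled to library size, with TMM; y axes from 0) of the 10 genes in each library, with pbrm-1(control) in grey and pbrm-1(TS-KO) in red, lines joining libraries of the same replicate number (printed at right in the order of the points) and bars giving the mean ± SD of 5 libraries. The lines run up and down in 9 of the genes, and only those of cat-2 run up in 5 of 5 pairs.

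No gene of acetylcholine synthesis, loading or recovery passed the test. unc-17 encodes the vesicular acetylcholine transporter and lies on chromosome IV, from 3618259 to 3624699 on the minus strand of WBcel235. In replicates 1, 4, 5, 6 and 7 its level was 72.2, 59.0, 63.2, 68.8 and 62.6 CPM in pbrm-1(TS-KO) and 72.6, 60.3, 63.7, 62.8 and 63.5 CPM in pbrm-1(control). Replicate 1 was the highest library in both strains, and the other libraries overlapped. Between strains the log2 fold change was 0.01 (SE 0.0670, 95% interval -0.13 to 0.16) with an edgeR adjusted p of 0.930.

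cha-1 encodes choline acetyltransferase, the enzyme that makes acetylcholine, and lies from 3613931 to 3624697 on the same strand, so that unc-17 is almost wholly within its span. The genes share exon sequence at their 5′ ends, 66 bases from 3624632 to 3624697, which are 3.43% of the exon bases of unc-17 and 3.18% of those of cha-1. Reads that fall wholly there cannot be assigned to only 1 of the genes. The level of cha-1 was 65.8, 61.5, 65.5, 69.8 and 69.3 CPM in pbrm-1(TS-KO) and 67.8, 62.9, 58.7, 66.0 and 67.2 CPM in pbrm-1(control). The lowest library was replicate 5 of pbrm-1(control), and the log2 fold change was 0.04 (SE 0.0537, 95% interval -0.08 to 0.16, edgeR adjusted p = 0.684).

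cho-1 encodes the high-affinity choline transporter that returns choline to the nerve ending. It lies on chromosome IV from 13209730 to 13214566, minus strand. Its level was 57.4, 45.2, 56.3, 55.25 and 49.6 CPM in pbrm-1(TS-KO) and 53.6, 48.6, 44.0, 53.1 and 50.4 CPM in pbrm-1(control). It was higher in 3 of 5 pairs, by most in replicate 5, where the control library was the lowest of all. Its log2 fold change was 0.08 (SE 0.0772, 95% interval -0.09 to 0.25, edgeR adjusted p = 0.575).

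For GABA, unc-25 encodes glutamic acid decarboxylase and lies on chromosome III from 12942651 to 12949883, plus strand. It had the highest level of the 10 genes, 127.6, 119, 127, 125 and 119.5 CPM in pbrm-1(TS-KO) and 130.03, 114, 113, 119 and 117 CPM in pbrm-1(control). Replicate 1 was the highest library in each strain, and pbrm-1(TS-KO) was higher in the other 4 pairs. Its log2 fold change was 0.06 (SE 0.0473, 95% interval -0.05 to 0.16, edgeR adjusted p = 0.494).

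unc-47 encodes the vesicular GABA transporter and lies on chromosome III from 10183762 to 10186260, minus strand. Its level was 16.8, 17.3, 17.3, 18.1 and 16.9 CPM in pbrm-1(TS-KO) and 19.4, 18.2, 17.2, 16.5 and 17.6 CPM in pbrm-1(control). The pbrm-1(TS-KO) libraries all lay within the range of the control libraries. Its log2 fold change was -0.04 (SE 0.0559, 95% interval -0.17 to 0.08, edgeR adjusted p = 0.680).

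Glutamate release depends on eat-4, a vesicular glutamate transporter, on chromosome III from 9136887 to 9141827, plus strand. Its level was 57.4, 48.0, 58.2, 55.9 and 49.9 CPM in pbrm-1(TS-KO) and 58.5, 50.8, 45.5, 51.7 and 50.1 CPM in pbrm-1(control). As for cho-1, replicate 5 of pbrm-1(control) was the lowest library and its pair had the widest gap, 0.35 on the log2 scale, while 3 of 5 pairs were lower in pbrm-1(TS-KO). The log2 fold change was 0.07 (SE 0.0760, 95% interval -0.10 to 0.24, edgeR adjusted p = 0.616).

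The monoamine genes included the only one of the 10 whose 95% interval lay above 0. cat-2 encodes tyrosine hydroxylase, the first enzyme of dopamine synthesis, and lies on chromosome II from 257819 to 261074, plus strand. Its level was 5.59, 3.34, 5.08, 5.67 and 3.89 CPM in replicates 1, 4, 5, 6 and 7 of pbrm-1(TS-KO) and 4.83, 2.38, 3.59, 2.52 and 2.77 CPM in those of pbrm-1(control). In each pair pbrm-1(TS-KO) was higher, but replicate 1 of pbrm-1(control) lay above replicates 4 and 7 of pbrm-1(TS-KO), and replicate 5 of pbrm-1(control) above replicate 4, so that the strains overlapped. The means were 4.71 ± 1.05 and 3.21 ± 1.02 CPM (SD, n = 5), and the log2 fold change was 0.55 (SE 0.218, 95% interval 0.07 to 1.03), or 46.2% higher, with an unadjusted p of 0.0281 and an edgeR adjusted p of 0.151.

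cat-2 was called in both fits with the replicate number as a block, and its call differed among the fits of strain alone. The strains were collected in parallel and the replicates on different days, and libraries of the same number are taken here as pairs. In edgeR with replicate number as a block the log2 fold change was 0.56 (SE 0.140, 95% interval 0.24 to 0.89) with an adjusted p of 0.0406. In that fit 10.9% of all genes tested passed the threshold. The pairs differed by 0.21, 0.48, 0.50, 1.16 and 0.48 on the log2 scale, and replicate 6 gave the widest gap. Without replicate 6 of both strains the log2 fold change was 0.40, with an edgeR adjusted p of 0.440. Without replicate 1 of pbrm-1(control) it was 0.75, with an adjusted p of 0.0393, the only one of 15 fits that left out libraries to pass. By limma-voom with quality weights, which like those 15 fits used strain alone, it was 0.85, with an adjusted p of 0.00797. Over all genes limma-voom called 2899. By DESeq2 the adjusted p was 0.0794 for strain alone and 0.0226 with the block.

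cat-2 had the fewest counts of the 10, with 153 to 225 in the pbrm-1(TS-KO) libraries and 92 to 210 in the controls, and 92 counts have an exact 95% Poisson interval of 74.2 to 113, for counting error only. The gene lies within the span of scc-2, which is on the opposite strand and encodes a factor that loads cohesin on chromosomes, with 0 exon bases in common. scc-2 was at 200 ± 15.1 CPM in pbrm-1(TS-KO) and 178 ± 12.2 CPM in pbrm-1(control) (SD, n = 5). It was higher in 5 of 5 pairs, with a log2 fold change of 0.17 and an edgeR adjusted p of 0.127. The counting is not stated to use strand, and the part of scc-2 reads in the counts of cat-2 was not tested.

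tph-1 encodes tryptophan hydroxylase, which starts serotonin synthesis, and lies on chromosome II from 7549335 to 7551983, plus strand. Its level was 8.47, 7.37, 10.8, 9.80 and 8.03 CPM in pbrm-1(TS-KO) and 8.11, 8.02, 9.81, 10.4 and 9.02 CPM in pbrm-1(control). Replicates 5 and 6 were the highest in both strains. Its log2 fold change was -0.03 (SE 0.118, 95% interval -0.29 to 0.23, edgeR adjusted p = 0.907).

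tdc-1 encodes tyrosine decarboxylase, which makes tyramine, and lies on chromosome II from 8270597 to 8273615, plus strand. Its level was 26.0, 20.2, 26.6, 24.96 and 20.3 CPM in pbrm-1(TS-KO) and 27.8, 20.6, 23.3, 23.5 and 20.9 CPM in pbrm-1(control). Replicates 4 and 7 were the lowest libraries of both strains, below all others. The log2 fold change was 0.02 (SE 0.106, 95% interval -0.21 to 0.25, edgeR adjusted p = 0.919).

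tbh-1 encodes tyramine beta-hydroxylase, which turns tyramine into octopamine, and lies on chromosome X from 15500256 to 15504895, minus strand. Its level was 7.38, 5.67, 6.08, 7.14 and 6.33 CPM in pbrm-1(TS-KO) and 6.41, 6.16, 5.597, 5.45 and 6.14 CPM in pbrm-1(control). It was higher in 4 of 5 pairs, with a log2 fold change of 0.13 (SE 0.0945, 95% interval -0.08 to 0.34, edgeR adjusted p = 0.433). Of its exon bases, 372 (17.05%) overlap H13N06.7 on the opposite strand, a gene with only 6 to 13 counts per library. Exon bases of tph-1, eat-4 and tdc-1 also overlap genes on the opposite strand. The largest of these overlaps is that of tph-1 with ZK1290.19, 102 bases (5.46%). For the 9 genes other than cat-2, the 95% intervals lay between -18.1% and 26.4%, each bound being the widest of the 9.

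**Figure D2:**
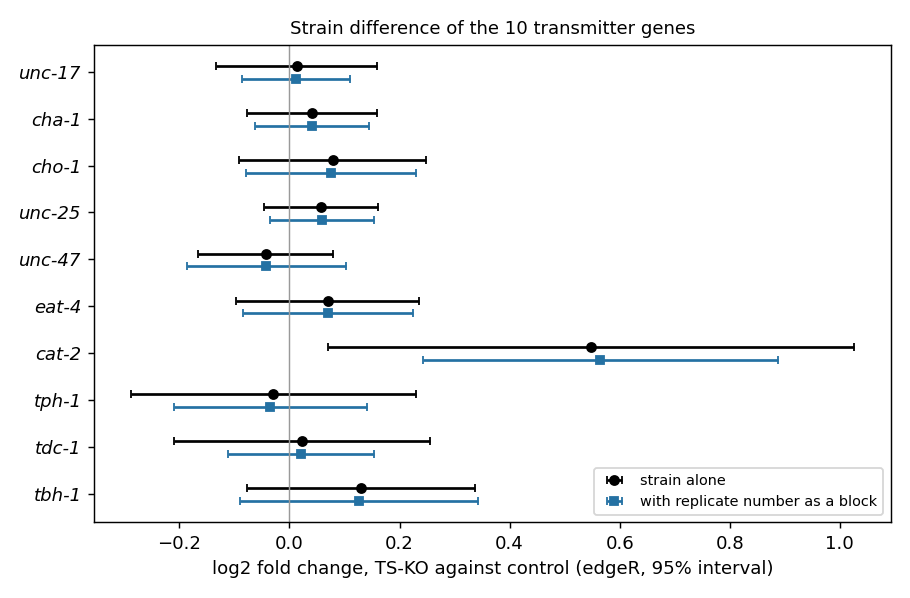
Log2 fold change of each gene, pbrm-1(TS-KO) against pbrm-1(control), with 95% intervals from edgeR (x axis), for strain alone (black circles) and with the replicate number as a block (blue squares). The intervals of 9 genes cross 0 in both fits, and those of cat-2, 0.07 to 1.03 and 0.24 to 0.89, do not.

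Genes of the same transmitter pathway were also compared as ratios of counts within a library, which do not depend on library size. The test of the ratios did not use the pairing of libraries by replicate number. Of the 4 ratios, cha-1 to unc-17 was 1.02 ± 0.0712 in pbrm-1(TS-KO) and 1.00 ± 0.0677 in pbrm-1(control) (SD, n = 5, two-sided exact permutation test, p = 0.706, adjusted p = 0.706). cho-1 to unc-17 was 0.809 ± 0.0479 and 0.775 ± 0.0609 (SD, n = 5, exact p = 0.349, adjusted p = 0.582). The ratio of unc-47 to unc-25 was 0.132, 0.146, 0.136, 0.145 and 0.141 in pbrm-1(TS-KO) and 0.149, 0.159, 0.152, 0.138 and 0.151 in pbrm-1(control). It was lower in 4 of 5 pairs, with a mean log2 difference of -0.10 (exact p = 0.0556, adjusted p = 0.222), and the strains overlapped through replicate 6 of pbrm-1(control). tbh-1 to tdc-1 was 0.279 ± 0.0306 and 0.259 ± 0.0343 (SD, n = 5, exact p = 0.437, adjusted p = 0.582). No ratio differed by the test after adjustment over the 4, and the smallest p that 5 libraries against 5 allow is 0.00794.

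Levels of different genes can be compared only per length, here as CPM per kb of exon, averaged over all 10 libraries. unc-25 had the highest level, 70.6 CPM per kb, followed by unc-17 at 33.8, cha-1 at 31.6, cho-1 at 26.1 and eat-4 at 23.7 CPM per kb. unc-47 was at 11.2 CPM per kb and tdc-1 at 9.41 CPM per kb. tph-1 was at 4.81, tbh-1 at 2.86 and cat-2 at 1.63 CPM per kb. The level of unc-25 was 43.4-fold that of cat-2. The genes of the monoamines took the last 4 places, and the range of unc-25 did not overlap that of any other gene. Neighbours in the order that overlapped in range were unc-17 and cha-1, cha-1 and cho-1, cho-1 and eat-4, and unc-47 and tdc-1. Per kb of coding sequence, cho-1 and eat-4 changed places, and tbh-1 and cat-2 overlapped. The effect of exon bases shared with other genes on these levels was not tested.

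**Figure D3:**
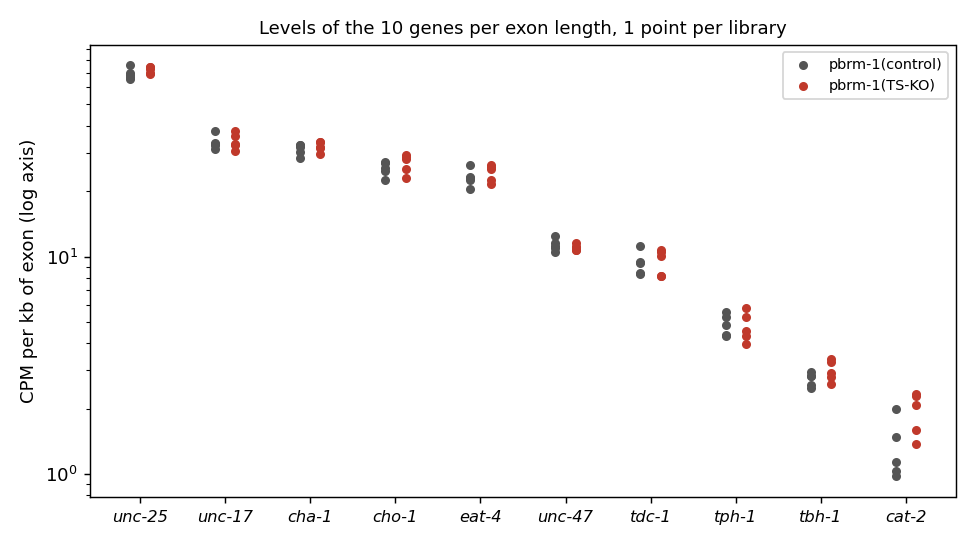
Level of the 10 genes as CPM per kb of exon (log axis), 1 point per library, with pbrm-1(control) in grey and pbrm-1(TS-KO) in red, ordered by the mean of all libraries. Levels run from 70.6 CPM per kb for unc-25 to 1.63 for cat-2, and red and grey points of each gene overlap.

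By value, levels also differed between replicate numbers, which are taken here as days of collection. The span between the highest and the lowest mean of a replicate number was larger than the difference between strains in all 10 genes. For 8 of the 10 the highest number was replicate 1, and for 7 of the 10 the lowest was replicate 4. The share of all genes tested with such a span or order was not counted. These counts therefore cannot be read as a trait of transmitter genes. cat-2 spanned 1.83-fold, tph-1 1.34-fold, tdc-1 1.32-fold and unc-17 1.21-fold over the replicate numbers. In an edgeR test of the replicate number, chosen after the data had been seen, these 4 genes had unadjusted p-values of 0.0272, 0.0295, 0.00826 and 0.0283, but none passed after adjustment, with adjusted p-values of 0.250 to 0.273. Over all genes tested 0% passed that test, and 16.5% had an unadjusted p under 0.05. The span is taken over 5 means and the strain difference over 2, so the spans are larger in part by construction.

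Other genes of dopamine and serotonin handling were read from the same fit. dat-1, the plasma membrane dopamine transporter, was at 25.5, 22.98, 23.6, 25.15 and 25.3 CPM in replicates 1, 4, 5, 6 and 7 of pbrm-1(TS-KO) and at 23.6, 20.1, 17.6, 19.1 and 21.2 CPM in those of pbrm-1(control). Only replicate 1 of pbrm-1(control) reached the range of pbrm-1(TS-KO), and each pair was higher in pbrm-1(TS-KO). The means were 24.5 ± 1.14 and 20.3 ± 2.26 CPM (SD, n = 5), with a log2 fold change of 0.27 (SE 0.0760, edgeR adjusted p = 0.0532), so dat-1 did not pass the threshold. With the replicate number as a block it was 0.28 with an adjusted p of 0.0293, and DESeq2 gave an adjusted p of 0.0215. DESeq2 with the block (adjusted p = 0.0208) and limma-voom (0.00991) also called dat-1. In edgeR it did not pass with RLE size factors (adjusted p = 0.0563) or without a filter on low counts (0.0895). Nor did it pass with at least 10 counts in every library (0.0519). Without replicate 1 of pbrm-1(control) its edgeR adjusted p was 0.0185, and without replicate 1 of both strains it was 0.0443, and in the other 13 fits that left out libraries it did not pass, with up to 0.214 without replicate 6 of both strains.

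The genes that dopamine neurons share with serotonin neurons had smaller differences. cat-1, the vesicular monoamine transporter, had a log2 fold change of 0.08 (edgeR adjusted p = 0.404) and was higher in 5 of 5 pairs. bas-1, the aromatic amino acid decarboxylase, had 0.08 (adjusted p = 0.658), and cat-4, the GTP cyclohydrolase that makes the cofactor of the hydroxylases, had 0.06 (adjusted p = 0.732). mod-5, the serotonin transporter, had 0.02 (adjusted p = 0.922). Of 17 monoamine genes tested other than the 10, none was called in either direction, and 1, dat-1, was called with the replicate block. Their median was -0.0002, and they ran from -1.39 to 0.45 on the log2 scale, so dat-1 did not have the largest difference by value. hdl-1, at 3 to 7 counts per library, was not tested, and tdc-2 matched no identifier.

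**Figure D4:**
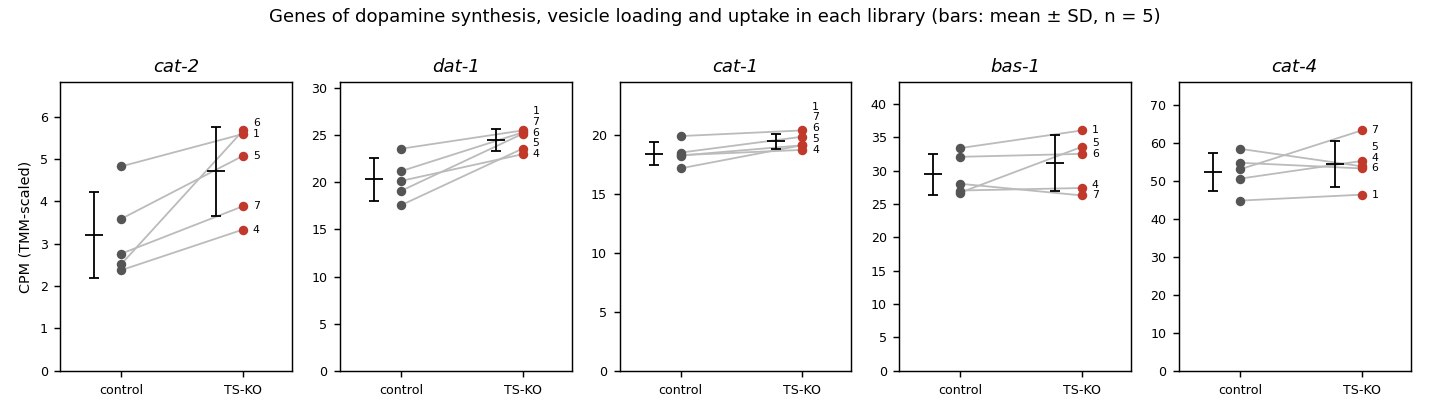
CPM (TMM-scaled, y axes from 0) of cat-2, dat-1, cat-1, bas-1 and cat-4 in each library, with lines joining libraries of the same replicate number and bars giving the mean ± SD of 5 libraries. The lines of cat-2, dat-1 and cat-1 run up in 5 of 5 pairs, those of bas-1 and cat-4 in 4 and 3.

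In the 4 lists of other acetylcholine, GABA, glutamate and monoamine genes, 4 of 47 tested passed the threshold (8.51%, near the 7.72% of all genes), 3 as higher and 1 as lower. Without replicate 5 of pbrm-1(control) 3 passed. Of 8 acetylcholine genes 1 was called, ckb-2, which encodes a choline kinase, an enzyme of phospholipid synthesis rather than of transmission. Its level was 9.69, 7.61, 10.02, 11.2 and 7.98 CPM in pbrm-1(TS-KO) and 35.7, 24.6, 27.6, 32.0 and 23.8 CPM in pbrm-1(control), without overlap. The log2 fold change was -1.63 (edgeR adjusted p = 5.04e-05), and ckb-2 passed in each of 15 fits that left out libraries and of 7 other alternatives. Over the list the median was -0.06. ace-1 and ace-2, which encode acetylcholinesterases, had log2 fold changes of 0.02 and 0.04 (edgeR adjusted p = 0.917 and 0.721), and the other members of that family, ace-3 and ace-4, had -0.15 and -0.12 (adjusted p = 0.241 and 0.380), ace-3 being lower in 5 of 5 pairs. The choline kinase gene cka-2 had ranges that did not overlap and a log2 fold change of -0.17 (edgeR adjusted p = 0.0625). For snf-6, a transporter of acetylcholine and choline, it was -0.01 (adjusted p = 0.925).

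Of 9 GABA genes 1 was called, gta-1, which encodes GABA transaminase, the enzyme that breaks GABA down. gta-1 was at 395 ± 6.80 CPM in pbrm-1(TS-KO) and 330.3 ± 6.27 CPM in pbrm-1(control) (SD, n = 5), with ranges of 387 to 405 and 322 to 339 CPM. The log2 fold change was 0.26 (edgeR adjusted p = 0.00113), and gta-1 too passed in each of the 15 fits and 7 alternatives. unc-46, which helps bring UNC-47 to vesicles, had a log2 fold change of -0.11 (edgeR adjusted p = 0.363) and was lower in 5 of 5 pairs. snf-11, the GABA uptake transporter, had -0.04 (adjusted p = 0.660) and unc-49, a GABA receptor of body wall muscle, 0.23 (adjusted p = 0.251). Over the list the median was -0.01.

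Of 13 glutamate genes tested 2 were called, both higher and both enzymes of metabolism. gln-1, a glutamine synthetase, was at 46.8 ± 1.19 CPM in pbrm-1(TS-KO) and 41.4 ± 0.323 CPM in pbrm-1(control) (SD, n = 5), with a log2 fold change of 0.18 (edgeR adjusted p = 0.0170). It passed without any single library, but without both libraries of any 1 replicate number its adjusted p was 0.0567 to 0.0908. gdh-1, a mitochondrial glutamate dehydrogenase, was at 5472 ± 379 and 4597 ± 335 CPM (SD, n = 5), with a log2 fold change of 0.25 (edgeR adjusted p = 0.0335), and was higher in 5 of 5 pairs. gdh-1 passed in 4 of the 15 fits that left out libraries, those without replicate 1 or 5 of pbrm-1(TS-KO) and without replicate 4 or 7 of pbrm-1(control), and had an adjusted p of up to 0.120 in the others. Without replicate 5 of pbrm-1(control) it was 0.0802. Without a filter on low counts neither passed (gln-1, adjusted p = 0.0644, and gdh-1, 0.0779), and gln-1 had 0.0714 in DESeq2 with the replicate block. glt-1, a glutamate transporter chosen for mention after its values were seen, had ranges that did not overlap, a log2 fold change of -0.19 and an edgeR adjusted p of 0.0833, or 0.0428 with the replicate block. gln-2, at 1 to 7 counts per library, was not tested. Over the list the median was 0.02.

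Marker genes of other tissues were read from the same libraries. The summed level of 9 intestine genes was 7059 to 7884 CPM in pbrm-1(control) and 8662 to 9384 CPM in pbrm-1(TS-KO). Their median log2 fold change was 0.23. The sum over 15 body wall muscle genes was 25644 to 27298 and 22865 to 27078 CPM, with a median of -0.21. That list holds genes that the paper had reported as lower in these data. Of 9 glia genes 8 were lower by value, with a median of -0.23, and of 10 germline genes 2 were called higher, with a median of -0.0016. No gene was called in the epidermis and mesoderm lists. The part of these tissues in the values of ckb-2, gta-1, gln-1 and gdh-1 was not tested.

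Of 18 transcription factors that set neuron type, edgeR called none and limma-voom 1, and their median was -0.0036. unc-3, a COE factor of cholinergic motor neurons, had a log2 fold change of -0.13 (edgeR adjusted p = 0.438). unc-30, a homeodomain factor that turns on unc-25 and unc-47 in GABA motor neurons, had -0.06 (adjusted p = 0.680), and unc-86, a POU factor of serotonin and other neurons, had -0.01 (adjusted p = 0.901).

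**Figure D5:**
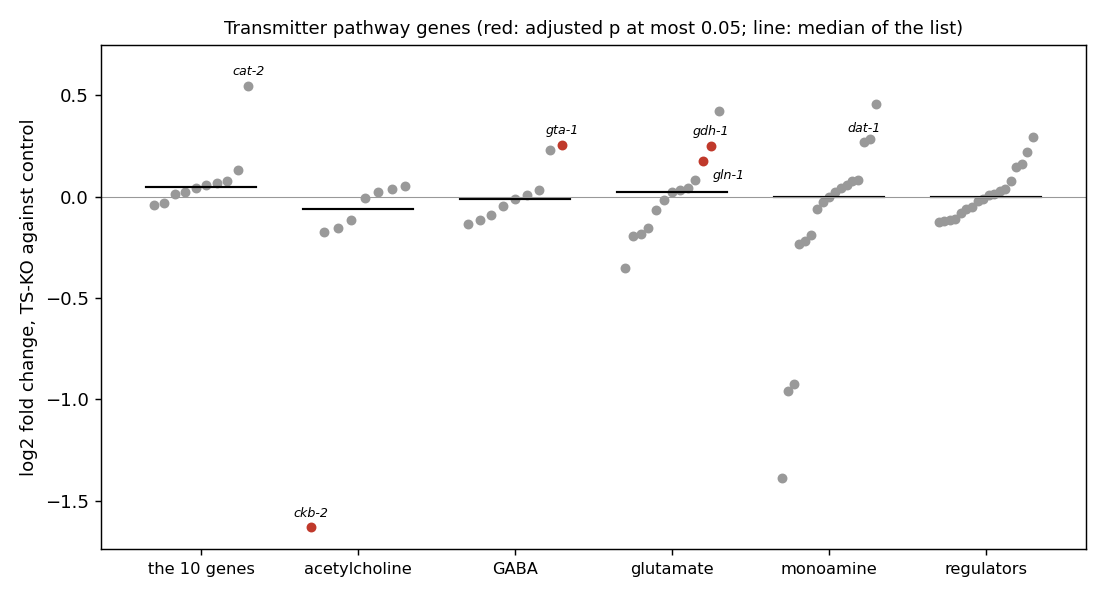
Log2 fold change, pbrm-1(TS-KO) against pbrm-1(control) (y axis), of the 10 genes, of 4 lists of other transmitter genes and of a list of transcription factors (regulators), 1 point per gene tested, in red where the edgeR adjusted p was at most 0.05, with a line at the median of each list. Red points are ckb-2 at -1.63, gta-1 at 0.26, gdh-1 at 0.25 and gln-1 at 0.18, and cat-2 and dat-1 are named in grey.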

How the data were processed

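PolyA RNA of whole larvae was sequenced in 10 libraries, 5 per strain. Reads were trimmed by the authors and mapped with STAR 2.5.2b, and those falling uniquely on exons were counted with featureCounts of Subread 1.5.2. The deposited values are unnormalized whole-number counts, 1 per gene and library. The assembly is named as WBcel325, taken here as WBcel235, whose Ensembl annotation gave positions and lengths. Whether counting used strand is not given in the sources used here. All columns were used.

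Counts were analysed in R 4.3.3 with edgeR 4.0.16 (filterByExpr, TMM, quasi-likelihood F test, strain alone, Benjamini-Hochberg adjustment over all 16817 genes tested, adjusted p at most 0.05, no fold limit). CPM are counts scaled to library size with TMM factors. Log2 values used a prior count of 2, and standard errors were derived from the F statistic. Ratios had 0.5 added to each count and were tested over all 252 divisions of the libraries. The fit was tested on simulated data. Alternatives were DESeq2 1.42.0, limma 3.58.1 (voom with quality weights), RLE size factors, the replicate block, no filter, a minimum of 10 counts in every library, and fits without libraries or pairs. The test of replicate number and the list counts without replicate 5 of pbrm-1(control) were added after seeing the data.

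Strains were collected in parallel on different days. The labels give only numbers, and same-numbered libraries were taken here to form pairs. The correlations of their deviations from strain means were 0.505, 0.283, 0.124, -0.0514 and 0.351 in replicates 1, 4, 5, 6 and 7, against a median of -0.0972 between different numbers. All 20 pairs of libraries within strains had chi-square ratios (3.44 to 43.2) above counting noise, so none was a duplicate.

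The members and the lists were chosen with earlier results of these data known. Named genes were the 10, every called gene of the 5 lists, 14 further genes fixed by name and pbrm-1; scc-2, H13N06.7, glt-1, ace-3, ace-4 and cka-2 were added after their values were seen. No sequence was at hand, so promoter motifs were not described.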

Additional observations from a re-analysis of the deposited data

Results flagged for a closer look

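Among 28 sets of 5 libraries tested for a library far from the rest, 1 was found, where chance gives about 1 in 20. unc-17 in replicate 1 of pbrm-1(control) was at 72.6 CPM and the next control library at 63.7 CPM, a gap of 0.722 of the whole range against a critical value of 0.71. Replicate 1 of pbrm-1(TS-KO) was also the highest of its strain, at 72.2 CPM.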

How the results depend on the processing

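The count of the 10 genes called, 0 in edgeR, was 1 with the replicate block in edgeR, 1 in DESeq2 with the replicate block and 1 in limma-voom, and 0 to 1 over the 15 fits that left out libraries. In edgeR the replicate block changed the calls of cat-2, dat-1 and glt-1 and of no other gene among the 10 and the 65 tested in the 5 lists, and in DESeq2 gln-1 passed without the block and not with it (adjusted p = 0.00113 and 0.0714). Of those 65 genes, 47 of transmitter pathways and 18 transcription factors, 4 were called in edgeR, 7 in DESeq2, 2 without a filter, 8 in DESeq2 with the block, 13 in limma-voom (1 a transcription factor), and 2 to 5 when libraries were left out. Over all genes 1299 were called in edgeR, 1958 in DESeq2, 2899 in limma-voom and 408 to 1204 when libraries were left out, fewest without replicate 6 of both strains. tph-1 changed sign in limma-voom (0.066, adjusted p = 0.697). When libraries were left out, unc-17 ranged from -0.027 to 0.062, unc-47 from -0.083 to 0.0042, tph-1 from -0.10 to 0.031 and tdc-1 from -0.020 to 0.10 on the log2 scale, and none passed the threshold. The log2 ratio of cha-1 to unc-17 ranged from -0.0062 to 0.070, that of cho-1 to unc-17 from -0.012 to 0.099, that of unc-47 to unc-25 from -0.14 to -0.08 and that of tbh-1 to tdc-1 from 0.06 to 0.17. Per kb of coding sequence 2 ranks of the level order changed. cat-2 had the fewest counts of the 10, and its SD within strains was 0.337 in pbrm-1(TS-KO) and 0.417 in pbrm-1(control) on the log2 scale. The causes of these changes were not tested.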
